A study of Homo sapiens with 6 samples.

Results

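MiR-211 and miR-204 are a pair of sister microRNAs (miRNAs) that lie in introns of the TRPM1 and TRPM3 ion channel genes, and the rows of the deposited table that carry their names are 4, namely the 5p and the 3p arm of each hairpin, out of 1596 mature miRNAs. The rule takes them by name and uses no measured value, though they were picked for description with earlier results of these data known. Small RNA was sequenced from human melanoma cells kept for 24 hours in RSL3 alone (the RSL3 monotreatment group, 3 libraries) or in RSL3 together with IFN-γ (the combined treatment group, 3 libraries), so both groups received RSL3 and there was no untreated group. RSL3 inactivates GPX4, which removes peroxides from membrane lipids, and thereby triggers ferroptosis, while IFN-γ is a cytokine of activated T cells. The labels name the cells as A2058 and the text of the study names them as A375. Both are established melanoma cell lines, and which of them was sequenced, and with it the dose of RSL3, is not settled by these sources. Whether the replicates were separate cultures is not stated, so a p-value here weighs a difference against a spread of libraries that may be technical only. In such bulk RNA, a loss of cells that make a miRNA and a lower amount of it per cell cannot be told apart.

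In pigment cells, TRPM1 is switched on by MITF, the transcription factor that governs melanocyte identity, and miR-211 is cut from the same transcript. MiR-204 comes from TRPM3 and is known from the retinal pigment epithelium, the lens and the choroid plexus as well as from melanoma. A miRNA finds its target mRNAs mainly through its seed, bases 2 to 8 counted from the 5′ end, so miRNAs of one seed are expected to bind many of the same mRNAs.

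The mature sequences, taken from RefSeq on GRCh38.p14, are shown because the seed decides which members can share targets, and the seed is printed in capitals.
hsa-miR-211-5p: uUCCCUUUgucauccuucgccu
hsa-miR-204-5p: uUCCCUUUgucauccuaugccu
hsa-miR-211-3p: gCAGGGACagcaaaggggugc
hsa-miR-204-3p: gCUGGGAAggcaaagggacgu
The 5p arms have one seed in common, and no other entry among the RefSeq mature miRNAs carries it. They are alike at 20 of 22 bases and differ by A17U and U18C, written with the base of miR-204-5p first, its position from the 5′ end, and the base of miR-211-5p last. The 3p arms have different seeds and differ at 6 of 21 bases. A read of a 5p arm that ends before base 17 could come from either hairpin, and no source used here says how such reads were counted.

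The hairpins, each of 110 bases and identical at 76 positions when aligned, are shown to place the arms, which are in capitals with the 5p arm first.
MIR211: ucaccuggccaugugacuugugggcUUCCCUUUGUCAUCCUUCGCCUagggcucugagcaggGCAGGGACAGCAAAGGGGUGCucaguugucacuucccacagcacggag
MIR204: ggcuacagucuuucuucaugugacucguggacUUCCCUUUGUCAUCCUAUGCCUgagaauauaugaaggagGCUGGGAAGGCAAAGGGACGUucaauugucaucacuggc
MIR211 lies on the minus strand of chromosome 15 (GRCh38) at chr15:31065032-31065141, in the sense of TRPM1. By GENCODE 29 it was intronic in all 6 protein-coding TRPM1 transcripts that span it, within intron 6 of the principal one, which is 2783 bases long. MIR204 lies on the minus strand of chromosome 9 at chr9:70809975-70810084, in the sense of TRPM3. It was intronic in all 13 protein-coding TRPM3 transcripts that span it, within intron 5 of the principal one, which is 26890 bases long. No other annotated gene overlapped either hairpin.

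Libraries held 4383940 to 6513382 counts. All 4 members passed the filter on low counts, which kept 758 miRNAs. The third RSL3 library stood apart in miRNAs of other cell types, with 5386 CPM (reads scaled to a common library size) of the lens miRNA miR-184 against 12.4 and 20.8 in the other RSL3 libraries and 150.3 to 321 in the combined treatment group. Fold changes of the 5p arms, their ratio and their sum are therefore also given without this library. Over all 17 listed markers of blood, epithelium, liver, muscle, lens and pancreas in the table, none of which was at 0 throughout, summed levels were 564 to 7082 CPM in the RSL3 group and 635 to 1129 CPM in the combined treatment group. None of the 15 tested markers passed edgeR's test at an adjusted p under 0.05, a level reached by 4.75% of the 758 tested miRNAs, and with the replicate number as a block 1 did, against 10.8% of all tested. This was miR-122-5p of the liver (named after its values were seen), at 31.2, 90.3 and 29.05 CPM under RSL3 and 79.7, 173.8 and 68.3 CPM with IFN-γ, higher in each numbered pair although the groups overlapped (log2 fold change 1.1, edgeR adjusted p = 0.18, or 0.0197 with the block). Without the third RSL3 library edgeR called miR-184, then higher with IFN-γ by the values above (22 of 805 miRNAs passed). Without the second RSL3 library it called miR-122-5p (55 of 816 passed). With no filter on low counts it called miR-1-3p, miR-122-5p and miR-184 (106 of 1596 passed). The second library of the combined treatment had the most blood miR-451a, at 318.3 CPM against 74.65 to 157.7 CPM elsewhere, and the most miR-122-5p. The part of these markers in the results was not tested. Of the melanocyte lineage, miR-211-5p had 269.9 to 387.5 CPM over the libraries. The muscle miRNA miR-1-3p had 155.6 to 1280 CPM and was above miR-211-5p in the third RSL3 library only. Another group of miRNAs of melanocytes and melanoma is the miR-506 to miR-514 cluster. It summed to 56.6 to 87.8 CPM in the RSL3 group and to 14.98 to 33.9 CPM in the combined treatment group.

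To see whether IFN-γ moved the TRPM-hosted miRNAs during ferroptosis, the groups were compared arm by arm. CPM values are scaled by TMM, which sets the libraries level on the bulk of miRNAs, and fold changes are those of the combined treatment over RSL3 alone. MiR-204-5p had a lower level in each library with IFN-γ than in any without. Levels of miR-211-5p, of the same seed, overlapped between the groups, through the third library of each. Near-equal reads of the pair under RSL3 thus stood against an excess of miR-211-5p with IFN-γ. None of the 4 arms passed edgeR's quasi-likelihood test at an adjusted p under 0.05, against 4.75% of all tested miRNAs. At an unadjusted p under 0.05 there was 1 of the 4, against 25.9% of all tested. DESeq2 called 1, against 12.5% of all tested, and limma called 0, against 32 of the 758.

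Under RSL3, hsa-miR-211-5p, the guide arm of the TRPM1-hosted hairpin, had 1368, 1210 and 1819 reads, or 269.9, 270.5 and 318 CPM. With IFN-γ it had 1375, 2269 and 1771 reads, or 332, 387.5 and 286 CPM. The groups overlapped, since the third library of the combined treatment lay below the third RSL3 library. Every library of the combined treatment lay above the first and second RSL3 libraries. Without the third RSL3 library, the one rich in miR-184, the log2 fold change was 0.28 (adjusted p = 0.598 from edgeR). It was 0.10 without the second library of the combined treatment, the highest in miR-451a and in miR-211-5p (adjusted p = 0.870 from edgeR). The means were 286 ± 27.8 and 335 ± 50.9 CPM (SD, n = 3 each). On the log2 scale this was a difference of 0.23 (edgeR adjusted p = 0.564, standard error 0.223). By mean level miR-211-5p ranked 133 among all 1596 miRNAs. With library totals in place of TMM the groups did not overlap, as was so in the higher direction for 26.0% of tested miRNAs, at 252.9 ± 24.0 and 386 ± 112 CPM (SD, n = 3 each), with a log2 fold change of 0.61 that did not pass either (adjusted p = 0.164 from edgeR). That scaling moved the median over all tested miRNAs from a log2 fold change of −0.04 to one of 0.33, and relative to this median miR-211-5p lay at 0.27 with TMM and at 0.28 with totals.

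Under RSL3, hsa-miR-204-5p, the guide arm of the TRPM3-hosted hairpin, had 1205, 1235 and 1968 reads, or 237.7, 276 and 344 CPM. With IFN-γ it had 722, 945 and 1072 reads, or 174, 161 and 173 CPM. Every library of the combined treatment lay below every RSL3 library, and the 3 values with IFN-γ were close to one another, whereas the RSL3 values were spread. Such separation in the lower direction was seen in 14.8% of all tested miRNAs, so it was not uncommon here.

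The means of hsa-miR-204-5p were 286 ± 54.0 and 169.6 ± 7.15 CPM (SD, n = 3 each). Its log2 fold change was −0.75 with a standard error of 0.227, which is 0.593 of the RSL3 level. In edgeR's quasi-likelihood test the difference missed the threshold (adjusted p = 0.075), and it passed with DESeq2 (log2 fold change −0.72, adjusted p = 0.0412), which called 12.5% of the tested miRNAs. The third RSL3 library was the one rich in miR-184 and the highest in miR-204-5p. Without it the log2 fold change was −0.63 (adjusted p = 0.227 from edgeR). Without the second library of the combined treatment, the lowest in miR-204-5p, the log2 fold change was −0.73 (adjusted p = 0.206 from edgeR). With library totals it was −0.39, the groups then overlapped (253.0 ± 48.7 and 193.0 ± 25.6 CPM, SD, n = 3 each), and relative to the median of all tested miRNAs it lay at −0.72 under both scalings.

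**Figure D1:**
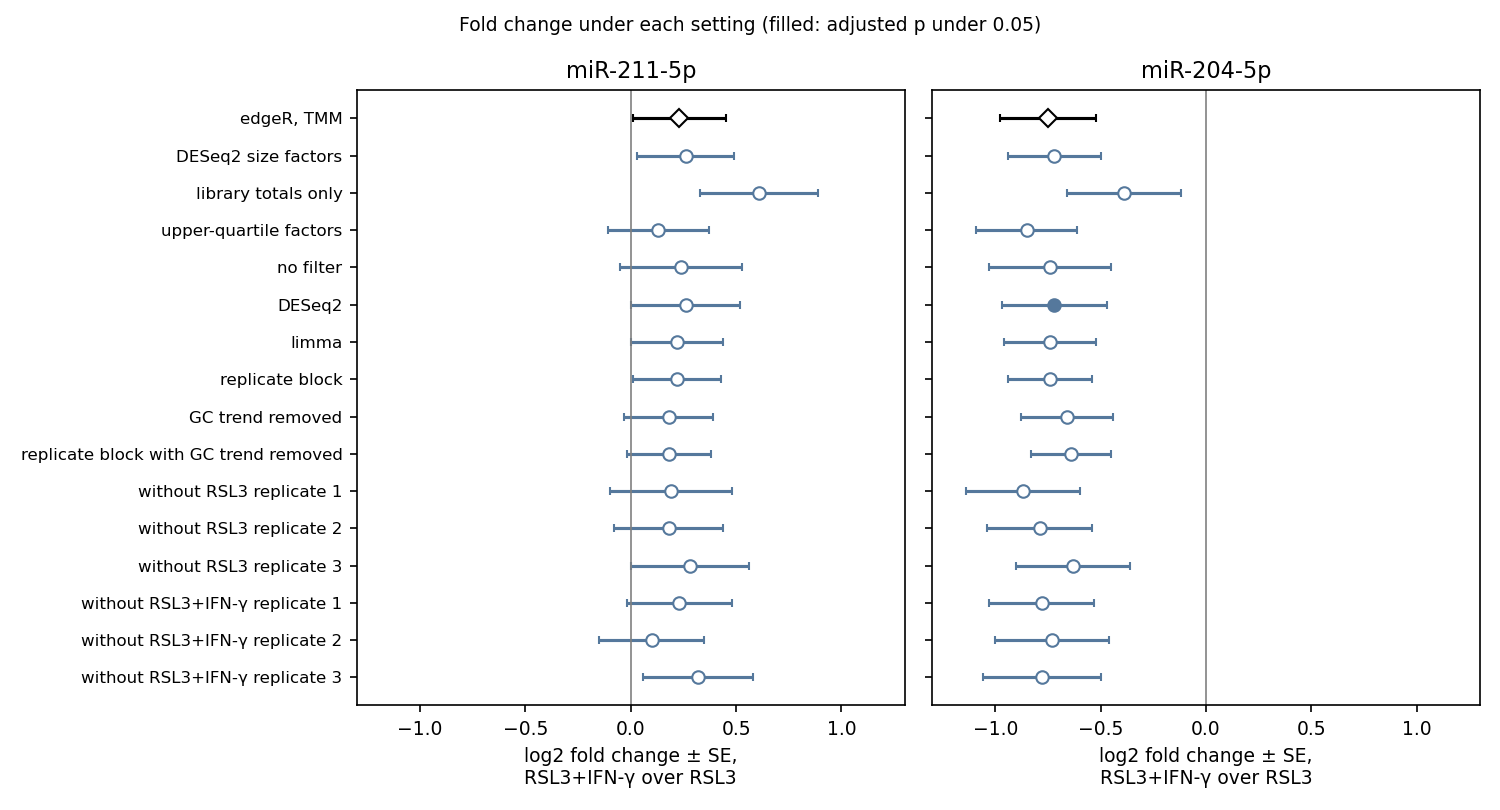
Log2 fold change ± standard error of miR-211-5p and miR-204-5p (RSL3 combined with IFN-γ over RSL3) under each way of processing the counts, filled where the adjusted p was under 0.05. Values of miR-204-5p lie between −0.87 and −0.39 and pass with DESeq2 only, and those of miR-211-5p lie between 0.10 and 0.61 and pass nowhere.

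The ratio of the 5p arms within a library does not depend on scaling. Reads of miR-211-5p per read of miR-204-5p were 1.14, 0.980 and 0.924 under RSL3, against 1.90, 2.40 and 1.65 with IFN-γ. The pair was thus near parity in all 3 RSL3 libraries, and miR-211-5p was in excess in all 3 with IFN-γ, without overlap. The mean ratio was 1.01 ± 0.109 and 1.99 ± 0.381 (SD, n = 3 each), and as a share of the reads of the pair, miR-211-5p made up 50.2% ± 2.65 and 66.2% ± 4.19 (SD, n = 3 each).

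On the log2 scale the ratio differed by 0.96 (standard error 0.180). The two-sided exact permutation test gave p = 0.1, the smallest that 3 libraries against 3 allow. Ratios without overlap were also found in 33.6% of the 72010 pairs among miRNAs with a mean of at least 100 reads. When every tested miRNA was set against miR-204-5p in the same library, limma gave miR-211-5p an adjusted p = 0.0200 (standard error 0.296), and 34.3% of the 757 miRNAs so compared passed in the same direction. Much of the table therefore stood higher relative to miR-204-5p, miR-211-5p among it. Without any single library the difference stayed between 0.81 and 1.08. It was 0.90 without the third RSL3 library and 0.81 without the second library of the combined treatment.

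The summed level of the pair was 507.6, 547 and 663 CPM under RSL3, against 507, 549 and 459 CPM with IFN-γ. Only names matched to RefSeq, 1425 of 1596, were screened for this seed. The ranges overlapped and the first and second libraries of the groups were nearly equal. The log2 difference was −0.18 (standard error 0.137, exact permutation p = 0.4), and with library totals its sign turned, to 0.18 (exact permutation p = 0.6). Without the third RSL3 library it was −0.07 (exact permutation p = 0.8). These exact permutation tests could not go below p = 0.1, or 0.2 with a library left out, so they leave the summed level of the pair undecided.

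**Figure D2:**
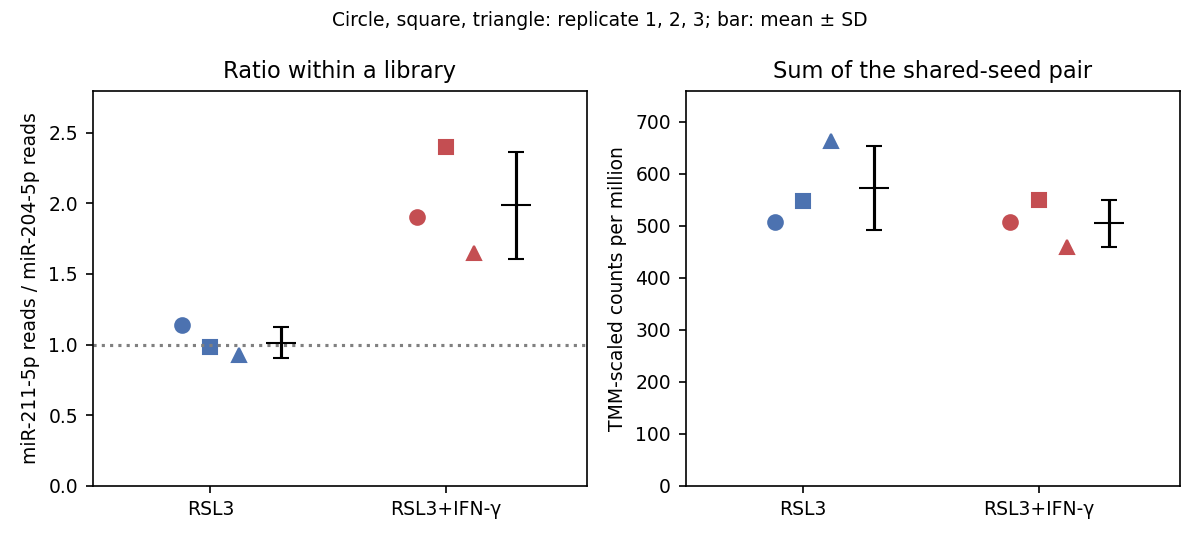
Left, reads of miR-211-5p per read of miR-204-5p in each library (dotted line, equal reads). Right, the summed TMM-scaled CPM of the pair, with circle, square and triangle for replicates 1, 2 and 3 and the bar for mean ± SD. The ratio is 0.924 to 1.14 under RSL3 and 1.65 to 2.40 with IFN-γ, while the sums overlap at 507.6 to 663 and 459 to 549.

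The 3p arms, the strands mostly discarded when the hairpin is loaded into Argonaute, were rare. Under RSL3 hsa-miR-211-3p had 23, 20 and 4 reads, and with IFN-γ it had 4, 17 and 3. Counts near 20 and near 4 occurred in both groups, which overlapped. Its levels were 3.24 ± 2.20 and 1.45 ± 1.28 CPM (SD, n = 3 each). The log2 fold change of −1.11 came with a standard error of 0.79 and did not pass (edgeR adjusted p = 0.40). Single libraries weighed heavily, the log2 fold change being −2.17 without the second library of the combined treatment, −1.63 without the third RSL3 library and −0.68 without the third library of the combined treatment.

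Under RSL3 hsa-miR-204-3p had 19, 32 and 42 reads, and with IFN-γ it had 16, 34 and 31, with overlap. Its levels were 6.08 ± 2.03 and 4.89 ± 0.975 CPM (SD, n = 3 each). The log2 fold change was −0.30 (edgeR adjusted p = 0.679, standard error 0.404), or 0.08 with library totals. The log2 fold change of the 5p arm of this hairpin was the more negative one with TMM (−0.75) and with library totals (−0.39). Once the trend with GC content described below was removed, it was −0.66 for both arms.

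Use of the arms was compared as the share of 3p reads among the reads of a hairpin, with exact (Clopper-Pearson) 95% intervals that cover counting error only. For miR-211 the share was 1.65% (1.05% to 2.47%), 1.63% (0.996% to 2.50%) and 0.219% (0.0598% to 0.561%) in the RSL3 libraries. With IFN-γ it was 0.290% (0.0791% to 0.741%), 0.744% (0.434% to 1.19%) and 0.169% (0.0349% to 0.493%). The interval of the third RSL3 library was apart from those of the other RSL3 libraries, so libraries of one group differed by more than counting error. The log2 ratio of the arms differed by −1.28 between the groups (exact permutation p = 0.3). It was lower with IFN-γ in each numbered pair, by −2.39, −1.14 and −0.32 (exact sign-flip p = 0.25, the smallest that 3 pairs allow). The difference was −2.21 without the third RSL3 library (exact permutation p = 0.2, the smallest that 3 libraries against 2 allow), −0.81 and −0.82 when RSL3 replicate 1 or 2 was left out, and −0.84 when this was done with replicate 3 of the combined group (exact permutation p = 0.6 for each of these).

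For miR-204 the share was 1.55% (0.937% to 2.41%), 2.53% (1.73% to 3.55%) and 2.09% (1.51% to 2.81%) in the RSL3 libraries. With IFN-γ it was 2.17% (1.24% to 3.50%), 3.47% (2.42% to 4.82%) and 2.81% (1.92% to 3.97%). The groups overlapped, although each library of the combined treatment was above the RSL3 library of its own replicate number, by 0.50, 0.47 and 0.44 on the log2 scale of the arm ratio. The mean difference was 0.47 (exact permutation p = 0.2, and 0.25 in the exact sign-flip test of the numbered pairs, the smallest that 3 pairs allow). Arm ratios of 22.7% of the 181 hairpins with at least 10 reads of each arm on average did not overlap between the groups. The arm ratios were not corrected for the trend with GC content.

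The hairpins also differed from each other, as the 3p share of miR-204 was above that of miR-211 in 5 of 6 libraries, with intervals apart in 4. By the median share over the 6 libraries, 0.517% for miR-211 and 2.35% for miR-204, they ranked 15 and 34 from the lowest of the 181 hairpins, among those that leave few 3p reads.

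**Figure D3:**
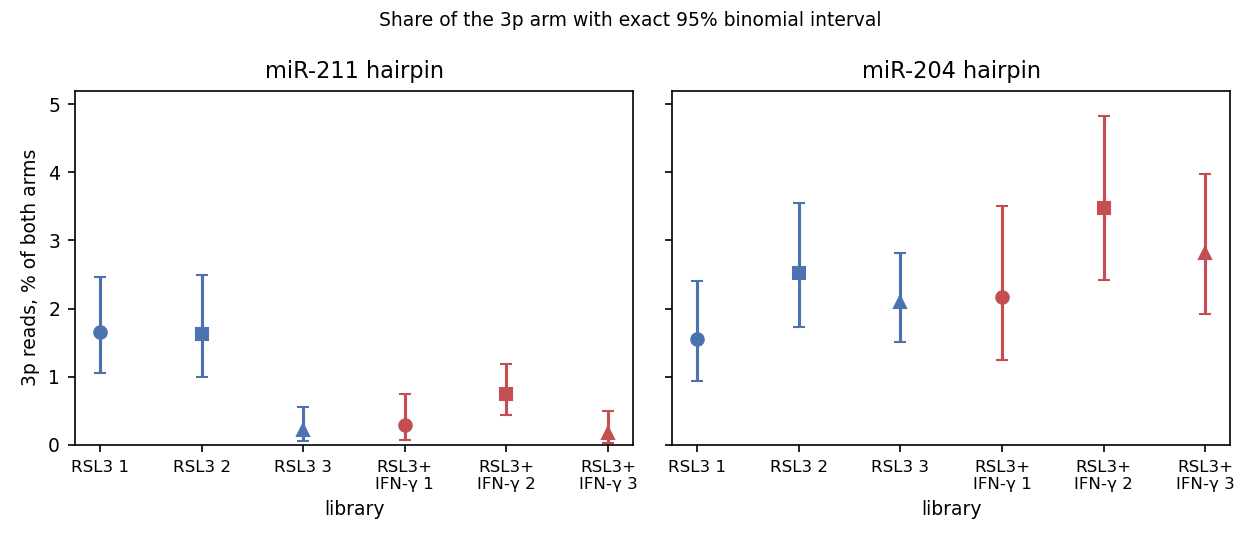
Share of 3p reads among all reads of the miR-211 and miR-204 hairpins in each library (percent, with exact 95% binomial intervals), RSL3 in blue and RSL3 combined with IFN-γ in red. For miR-211 the first and second RSL3 libraries, at 1.65% and 1.63%, lie above the third at 0.219%, and for miR-204 all libraries lie between 1.55% and 3.47%.

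By the root-mean-square difference of the centred log2 CPM over the 6 libraries, the miRNAs most like miR-211-5p, among those with a mean of at least 100 CPM, were miR-23a-3p (0.106), miR-512-3p (0.118) and miR-197-3p (0.126). Those most like miR-204-5p were miR-125b-2-3p (0.228), miR-767-5p (0.233) and miR-941 (0.243), none of which passed edgeR's test. The sister miRNAs were 0.512 apart by this measure. Of the miRNAs compared, 68.1% were nearer to miR-211-5p than miR-204-5p was, and 50.0% were nearer to miR-204-5p than miR-211-5p was, so from the side of miR-204-5p its sister stood in the middle of the order.

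MITF drives TRPM1 and is itself held down by several miRNAs, so the 8 measured miRNAs known to target MITF were set beside the members. None of the 8 passed edgeR's test, against 4.75% of all tested miRNAs, while 2 had an unadjusted p under 0.05 (25.9% of all tested did). DESeq2 called 1 (12.5% of all tested) and limma 0 (32 of all 758 tested). These shares of calls are close to those of the whole table. The median log2 fold change of the 8 was −0.38, where that of all tested miRNAs was −0.04. By CPM, miR-340-5p, miR-148a-3p and miR-218-5p were lower with IFN-γ without overlap, and the others overlapped. Such separation in the lower direction was seen in 14.8% of all tested miRNAs. MiR-340-5p had 1670, 843 and 1901 CPM under RSL3, against 615, 294 and 832 CPM with IFN-γ, without overlap. Its log2 fold change was −1.34 (adjusted p = 0.075 from edgeR), it passed with the replicate number as a block (adjusted p = 0.0157 from edgeR, where 10.8% of all tested miRNAs passed), and the log2 fold change was −0.51 once a trend with GC content was removed.

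The most abundant of the 8, miR-148a-3p, had 39990, 29100 and 36200 CPM under RSL3 and 17380, 27630 and 25630 CPM with IFN-γ, and its log2 fold change was −0.58 (edgeR adjusted p = 0.179). MiR-148b-3p (−0.61), miR-218-5p (−0.55), miR-101-3p (−0.22), miR-182-5p (−0.02), miR-152-3p (0.22) and miR-137-3p (0.35) did not pass. MiR-137-3p had 11 to 46 reads per library, so that its log2 fold change carried a standard error of 0.572.

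Of the miR-506 to miR-514 cluster on the X chromosome, 8 miRNAs were in the table and 2 passed the filter on low counts. MiR-514a-3p had 65.3, 50.1 and 75.9 CPM under RSL3, against 14.5, 28.2 and 30.3 CPM with IFN-γ, without overlap. Such separation in the lower direction was seen in 14.8% of all tested miRNAs. MiR-514a-3p was lower with IFN-γ by 1.38 on the log2 scale (edgeR adjusted p = 0.0374, standard error 0.319). It was the 1 call among the 2 tested members, where 4.75% of all tested miRNAs passed. The call was lost without RSL3 replicate 1 or 3 (adjusted p = 0.174 and 0.0824 from edgeR) as well as when the combined treatment lacked its replicate 2 or 3 (adjusted p = 0.0909 and 0.0774 from edgeR). With library totals, and with the trend with GC content removed, its log2 fold change was −0.97 and did not pass (adjusted p = 0.108 and 0.113 from edgeR). MiR-509-3-5p had a log2 fold change of −1.57 (adjusted p = 0.145 from edgeR). The members that failed the filter had 17 reads or fewer per library and were not tested in the main fit. Of these, miR-508-3p had 8, 2 and 7 reads under RSL3 and no read in any library with IFN-γ. MiR-506-3p had 3, 1 and 5 reads under RSL3 and 0, 1 and 0 with IFN-γ. A count of 1 read thus occurred in both groups, and its lower CPM without overlap rests on the scaling. The share of such separation among miRNAs below the filter was not computed. MiR-509-3p, miR-509-5p, miR-514a-5p and miR-514b-3p overlapped between the groups.

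**Figure D4:**
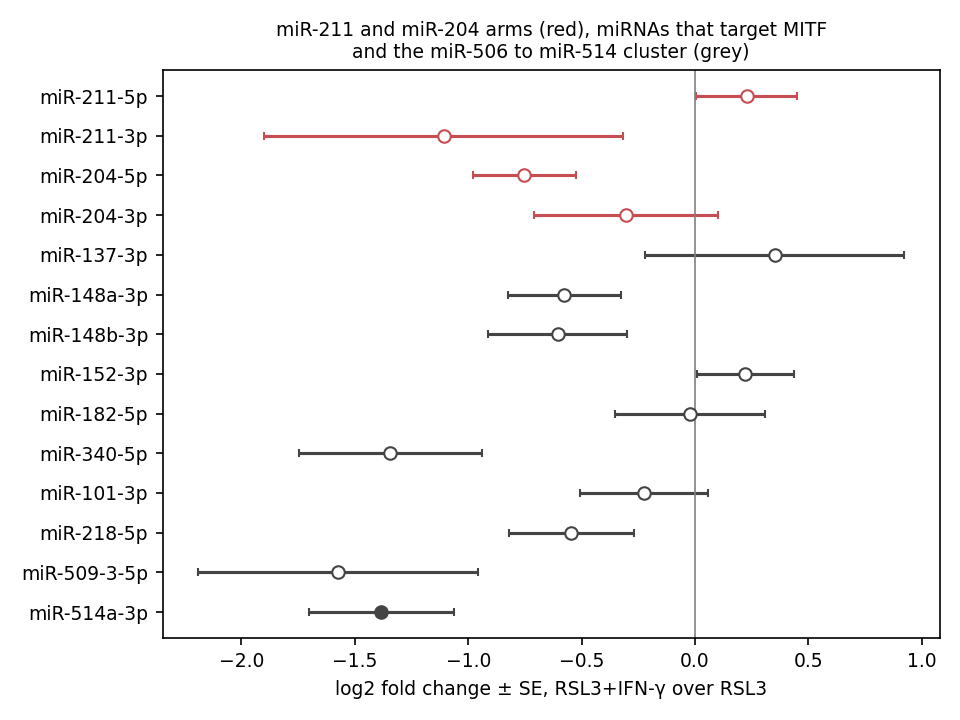
Log2 fold change ± standard error from edgeR (RSL3 combined with IFN-γ over RSL3) of the 4 arms of miR-211 and miR-204 (red), the 8 miRNAs that target MITF and the 2 tested members of the miR-506 to miR-514 cluster (grey), filled where the adjusted p was under 0.05. MiR-514a-3p at −1.38 is the filled point, and miR-211-5p at 0.23 and miR-204-5p at −0.75 are open.

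Fold changes over the table were related to base composition, with a Spearman correlation of 0.469 between log2 fold change and GC content of the mature sequence across 679 miRNAs, which are not independent replicates. The GC content was 50.0% in miR-211-5p, 45.5% in miR-204-5p, 66.7% in miR-211-3p and 61.9% in miR-204-3p. Tested miRNAs within 5 percentage points of these values had median log2 fold changes of −0.05, −0.10, 0.27 and 0.27. With the trend removed, the log2 fold changes were 0.18 for miR-211-5p and −0.66 for miR-204-5p, close to those without removal, and −1.58 for miR-211-3p and −0.66 for miR-204-3p.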

How the data were processed

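Reads per mature miRNA were counted by the authors. Tools in the submitters' processing notes are edgeR, Bowtie 1.1.1 and bcl2fastq, and the build is GRCh38. No source used here gives the miRBase release, the mismatches allowed or the handling of reads with several matches. The study names a directional RNA kit and the labels a small RNA kit. The deposited raw counts were used. The authors' normalized signal and the columns of their own comparison (log2 fold change, linear fold ratio and p-value) were deposited too and were not used.

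Counts were tested over the whole table with edgeR 4.0.16 (R 4.3.3, quasi-likelihood, TMM, two-sided, filter at a minimum count of 10 and total of 15) and Benjamini-Hochberg adjustment, with calls made below an adjusted p of 0.05. Standard errors are the log2 fold change over the root of F. DESeq2 1.42.0, limma 3.58.1 (log2 of CPM plus 0.5), other scalings, no filter, removal of a GC trend by lowess in each library, the replicate block and leaving out each library served as alternatives. Ratios had 0.5 reads added to each count and were tested by exact permutation of libraries (scipy 1.17.1). GC content and sequences came from RefSeq, which matched 1425 of 1596 names, and gene models from GENCODE 29. Scripts were tested on simulated data.

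Libraries were grouped by their titles. Total counts were 5887471, 4897890 and 6513382 for RSL3 and 4383940, 4404760 and 5367150 for the combined treatment, and intervals from them cover counting error only. Within a group, every pair of libraries differed beyond counting noise, with a chi-square of 148 or more per degree of freedom. Same-numbered libraries deviated together from their group means (correlations of 0.204, 0.202 and 0.186 over miRNAs, all above 0.1). No source says what the numbers stand for. The main fits used the group only, and the replicate number entered as a block in alternatives. If the numbers do mark pairs, the main p-values leave that pairing out. The named miRNAs are the 4 arms, entries with a seed in common with a 5p arm, a list of miRNAs that target MITF, the miR-506 to miR-514 cluster, and the 3 most alike in pattern to each 5p arm. Members and lists were chosen with earlier results of these data known, so the lists give no independent support for a direction.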

Additional observations from a re-analysis of the deposited data

How the results depend on the processing

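Log2 fold changes of miR-211-5p, miR-211-3p and miR-204-5p kept their sign under every alternative, and only that of miR-204-5p with DESeq2 (−0.72) crossed to an adjusted p under 0.05; without single libraries it ran from −0.87 to −0.63. With library totals the fold change of miR-204-3p turned to 0.08 and that of the summed seed pair to 0.18. The difference of the 5p ratio was 0.96 in limma without and with the replicate block (the latter added after the data were seen), where it passed, which the exact test cannot at this size. Of the 757 miRNAs set against miR-204-5p, 34.3% passed in the same direction without the block and 287 with it. With the replicate block the log2 fold change of miR-204-5p was −0.74 (adjusted p = 0.0607 from edgeR). The block changed no call of the members or of the cluster, 1 in the MITF list, and 1 among the markers of other cell types (miR-122-5p). The MITF list had 1 call (miR-340-5p) with no filter, DESeq2 or the block, and 0 to 1 without single libraries (1 without RSL3 replicate 2). The miR-506 to miR-514 list had 0 calls by edgeR with library totals (1 at an unadjusted p under 0.05), and 0 with the GC trend removed, without or with the block (2 each at an unadjusted p under 0.05), and 0 to 1 without single libraries. Among all tested miRNAs 36 were called, or 71 with library totals, 106 with no filter, 95 by DESeq2, 82 with the block, 20 with the GC trend removed, and 0 to 95 without single libraries, with the 0 in the fit that left out RSL3 replicate 1 (124 had an unadjusted p under 0.05 there). The cause was not tested. The 3p arms had 3 to 42 reads per library, and their counting intervals are wide.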
